A study of Rattus norvegicus with 9 samples.

Results

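The genes described here encode the nuclear subunits of the oxidative phosphorylation system of rat kidney. They were taken as the probe sets annotated to exactly 1 gene whose symbol begins with Nduf, Uqcr, Cox4, Cox5, Cox6, Cox7, Cox8 or Atp5, together with Sdha, Sdhb, Sdhc, Sdhd, Cyc1 and Cycs. This gave 97 probe sets for 87 of the 14217 genes named on the array, and each gene was read by its brightest probe set, averaged over the 9 arrays. By name they comprised 36 genes of complex I, 6 Nduf-named assembly factors of complex I, 4 of complex II, 8 of complex III, 17 of complex IV and 16 of complex V. A further 9 probe sets matched these names but were annotated to several genes and were not used. For that reason Cycs, Cox7a2, Ndufa10, Ndufs5, Uqcrb, Atp5mc1 and Atp5mc2 have no value here, and Cox5a was read by a dimmer probe set.

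Oxidative phosphorylation takes place at the inner mitochondrial membrane. Complex I accepts electrons from NADH and complex II, succinate dehydrogenase, from succinate; complex III passes them to cytochrome c and complex IV from there to oxygen, while complex V, the ATP synthase, uses the proton gradient to make ATP. The tubule epithelium of the kidney, above all the proximal tubule and the thick ascending limb, is dense in mitochondria and depends on this pathway for salt and solute transport.

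Kidneys came from Sprague-Dawley rats, an outbred stock, bought at 8 weeks of age and acclimated for 1 week. For 7 days each rat received a daily intraperitoneal injection of colistin methanesulfonate sodium (CMS) in saline, from which the body releases the polymyxin antibiotic colistin. The doses were 0 mg/kg (vehicle), 25 mg/kg (CMS25) and 50 mg/kg (CMS50), with 3 rats drawn from each dose group and 1 array per rat. The labels list no lesion for vehicle, basophilic and dilated tubules for CMS25, and cell necrosis, degenerated or dilated tubules and eosinophilic casts for CMS50. Total RNA of 1 whole kidney per rat was read on Affymetrix 3′ expression arrays of rat genes, and all values are log2 intensities as deposited. In whole kidney, fewer cells of a type and less RNA per cell cannot be told apart.

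The number of arrays limits the precision, and correlations between arrays ran from 0.916 to 0.989. Markers of the labelled tissue were present, with all 20 proximal tubule genes measured. Here and below, a gene said to fall or rise was called by limma at an adjusted p under 0.05. At CMS50 against vehicle, 6 of these 20 fell and 3 rose, and 5 of 10 thick ascending limb and distal tubule genes fell and 1 rose. The summed intensity of the latter list was 41100 to 44200 in vehicle, 36900 to 40400 in CMS25 and 12400 to 33300 in CMS50, and that of the proximal list 147000 to 150000, 141000 to 156000 and 103000 to 141000. All 11 measured macrophage markers rose (summed intensity 4330 to 4950 in vehicle, 3590 to 5340 in CMS25, 10000 to 17100 in CMS50), with Cd163 and Itgam below the intensity minimum, and 6 of 8 fibroblast markers rose. Called lower at CMS50 were also 5 of 11 collecting duct, 2 of 6 podocyte and 2 of 3 erythrocyte genes, with medians of -0.41, -0.71 and -1.46. Of all genes tested, 11.4% were called lower and 19.6% higher at CMS50 against vehicle. No marker list was tested against these shares. At CMS25 limma called none of these markers, and the medians of the proximal tubule, macrophage and fibroblast lists were 0.09, 0.00 and -0.18. The log2 difference between the 3′ and 5′ control probe sets of beta-actin, a sign of RNA degradation when it is large, was 2.98 ± 0.155 in vehicle, 3.17 ± 0.120 in CMS25 and 3.58 ± 0.0854 in CMS50 (SD, n = 3). For GAPDH it was 0.542 ± 0.0286, 0.698 ± 0.209 and 0.816 ± 0.0622. These shifts at CMS50 stand beside every CMS50 result below, and their part in those results was not tested.

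At 50 mg/kg 17 of the oxidative phosphorylation genes defined above, the members, were called lower. Of these, 11 belong to complex I, 1 to its assembly factors, 3 to complex II and 2 to complex V. None of complexes III and IV was called lower, although 6 of 8 and 10 of 11 of their changes were below 0. Of the 87 genes, 80 had a mean log2 value of at least 5 and were measured, and the CMS50 change was below 0 for 74 of these 80, or for 64 of 80 after cyclic loess scaling, against 43.8% of all 10337 genes tested. In limma with Benjamini-Hochberg adjustment over all 10337 genes, these 17 members passed an adjusted p under 0.05, and 1, Cox7a2l, rose. Over all genes tested 31.1% were called, 11.4% lower and 19.6% higher, while 22.5% of the measured members were called, 21.2% lower and 1.25% higher. No share was tested against another. After cyclic loess scaling the medians of complexes I to V were -0.21, -0.34, -0.06, -0.02 and -0.07, all still below 0. The median log2 change of the members was -0.18 (-12.0%), with a range from -0.65 to 0.34, beside 0.05 for all genes, and no member changed 2-fold. In 43 members every CMS50 array was below every vehicle array (53.8%, beside 19.1% of all genes), and in 1 every CMS50 array was above (beside 30.6%).

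How many members were called depended on single arrays. Without CMS50 replicate 1 or CMS50 replicate 2, 5 members were called lower, and without CMS50 replicate 3 there were 33. Leaving out vehicle replicate 1, 2 or 3 gave counts of 8, 5 and 9. The members' median stayed between -0.25 and -0.15 in these fits. The genes Sdhd, Sdhc, Ndufb8, Ndufa8 and Ndufaf8 were called lower in the main analysis and in each of the 19 alternatives.

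**Figure D1:**
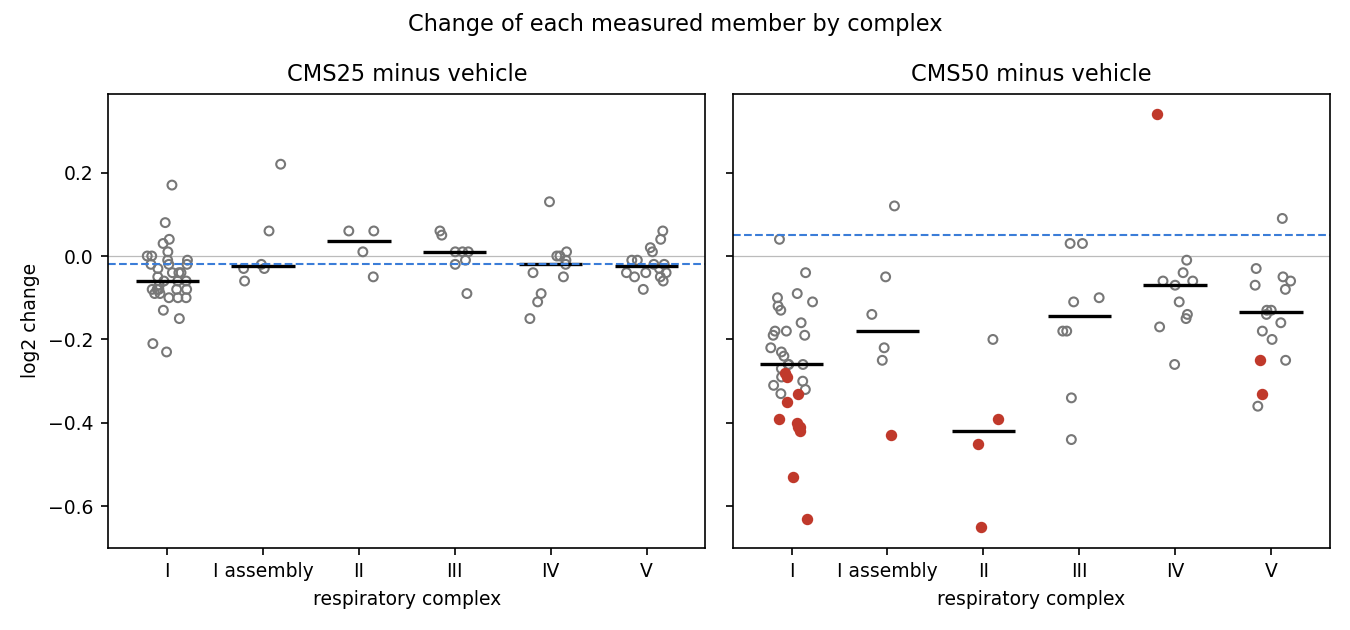
Log2 change of each measured member against vehicle, at CMS25 (left) and CMS50 (right), by complex. Each circle is 1 gene, filled red where it was called by limma, the black bars are medians and the dashed blue line is the median of all genes tested; at CMS50 the complex medians run from -0.42 in complex II to -0.07 in complex IV, and at CMS25 no gene is called.

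Complex II had the lowest median of the 5 complexes at CMS50, -0.42 (-25.1%), and 3 of its 4 subunits fell. It oxidises succinate to fumarate and so belongs to both the tricarboxylic acid cycle and the respiratory chain, and all of its subunits are nuclear genes. Sdhd, a membrane anchor that helps to bind haem and ubiquinone, had log2 values of 12.23, 12.30 and 12.08 in vehicle, 12.29, 12.04 and 12.14 in CMS25, and 11.37, 11.53 and 11.79 in CMS50. All 3 CMS50 arrays were below all 6 others. The fall against vehicle was 36.1% (log2 change -0.65, SE 0.12, adjusted p = 0.00630), and a second Sdhd probe set gave -0.79 (adjusted p = 0.00292).

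Sdhc, the other membrane anchor, read 12.80, 12.71 and 12.61 in vehicle, 12.87, 12.71 and 12.72 in CMS25, and 12.25, 12.17 and 12.36 in CMS50. Again no CMS50 array reached any array of the other doses, and the fall was 26.6% (log2 change -0.45, SE 0.092, adjusted p = 0.00845). Sdha, the flavoprotein that holds the succinate site, read 12.09, 12.23 and 11.94 in vehicle, 12.29, 12.29 and 11.87 in CMS25, and 11.74, 11.71 and 11.65 in CMS50. The CMS50 arrays were below all others, while vehicle and CMS25 overlapped. The fall (log2 change -0.39, SE 0.13, adjusted p = 0.0467) lay close to the threshold and was not called after cyclic loess scaling (adjusted p = 0.101), with no intensity minimum (adjusted p = 0.0572) or without any 1 of the vehicle or CMS50 arrays.

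Sdhb, the iron-sulphur subunit that carries electrons from Sdha to the anchors, read 12.25, 12.16 and 12.24 in vehicle, 12.32, 12.13 and 12.25 in CMS25, and 12.02, 11.93 and 12.12 in CMS50. The CMS50 arrays were again the lowest, with only 0.04 between CMS50 replicate 3 and the nearest vehicle array. Its log2 change of -0.20 (SE 0.088) did not pass the test (adjusted p = 0.117).

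The promoters of the 3 called complex II genes are shown because these transcripts were lower together at CMS50. Each is the 250 bases before the annotated start in RefSeq's GRCr8 assembly, written 5′ to 3′ on the gene's strand, at chr1:30764303-30764552 (plus strand) for Sdha, chr8:59850642-59850891 (minus strand) for Sdhd and chr13:86098026-86098275 (minus strand) for Sdhc. Capitals mark exact matches, on either strand, to 1 of 4 motifs: GCGCA, any base and GCGC for NRF1, ACCGGAAG for the ETS factor NRF2 (GABP), AANATGGCG for YY1 and TCAAGGTCA for the oestrogen-related receptors (ERR).
Sdha: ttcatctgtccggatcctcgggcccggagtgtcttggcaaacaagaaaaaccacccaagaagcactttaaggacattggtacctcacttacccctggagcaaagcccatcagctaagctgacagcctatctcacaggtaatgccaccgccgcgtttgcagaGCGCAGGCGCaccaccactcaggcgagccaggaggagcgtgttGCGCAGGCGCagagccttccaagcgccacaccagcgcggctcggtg
Sdhd: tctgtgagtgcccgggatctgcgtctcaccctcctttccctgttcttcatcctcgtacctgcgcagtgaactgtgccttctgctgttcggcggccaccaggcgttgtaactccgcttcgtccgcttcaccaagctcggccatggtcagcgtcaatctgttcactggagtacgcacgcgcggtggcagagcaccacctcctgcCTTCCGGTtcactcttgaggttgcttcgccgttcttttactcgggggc
Sdhc: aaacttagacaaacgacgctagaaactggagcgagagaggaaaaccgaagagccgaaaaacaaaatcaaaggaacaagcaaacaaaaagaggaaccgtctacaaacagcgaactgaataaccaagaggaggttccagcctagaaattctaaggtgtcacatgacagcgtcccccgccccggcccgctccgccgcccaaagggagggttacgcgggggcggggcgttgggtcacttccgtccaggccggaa
The Sdha stretch held 2 NRF1 matches, which began 89 and 46 bases before the start, and the Sdhd stretch held 1 ETS match 48 bases before the start. None of the 4 motifs matched in the Sdhc stretch, which says only that these letters are not in it.

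Over the 300-base windows that RefSeq gives for 78 of the 87 members (250 bases before and 50 after the start), 38 held at least 1 of the motifs, and no matches of different motifs overlapped. NRF1 letters were found in 15 of the 78 (19.2%), beside 10.3% of the genes tested that have a window and 4.71% of all 27457 windows. YY1 letters were found in 19 (24.4%, beside 6.75% and 3.33%), ETS letters in 9 (11.5%, beside 5.25% and 2.67%) and ERR letters in 2 (2.56%, beside 0.243% and 0.412%). Among members with a window, NRF1 letters stood in 4 of 15 called lower at CMS50 and 11 of 57 measured but not called lower. For YY1 these counts were 4 of 15 and 14 of 57, for ETS 3 of 15 and 6 of 57, and for ERR 1 of 15 and 1 of 57. By complex, with unmeasured genes included, NRF1 letters stood in 6 of 34 in complex I, 2 of 6 of its assembly factors and 1 of 4 in complex II. For complexes III, IV and V the counts were 1 of 6, 0 of 13 and 5 of 15. A match is a description of the sequence and not a measured binding site.

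Complex I, the largest of the complexes, had a median change of -0.26 (-16.8%) at CMS50, and 11 of 35 measured genes fell while none rose. The change was below 0 for 34 of the 35, and in 24 all CMS50 arrays lay below all vehicle arrays. The core subunits of the peripheral arm carry the flavin and the chain of iron-sulphur clusters from NADH to ubiquinone. Of the 6 measured core subunits 2 fell, Ndufs1 and Ndufs3, and the median of the 6 was -0.31. The flavin-binding subunit Ndufv1 did not pass the test (log2 change -0.23, SE 0.10, adjusted p = 0.112).

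Ndufs1, the largest iron-sulphur subunit, read 11.27, 11.43 and 11.24 in vehicle, 11.41, 11.15 and 11.07 in CMS25, and 10.54, 10.77 and 11.04 in CMS50. CMS50 replicate 3 came within 0.03 of the lowest CMS25 array, and CMS50 replicate 1 was 0.70 below the lowest vehicle array. The fall of 30.8% (log2 change -0.53, SE 0.14, adjusted p = 0.0217) was not called without vehicle replicate 2, CMS50 replicate 1 or CMS50 replicate 2 (adjusted p = 0.0764, 0.0754 and 0.0655). Ndufs3, a core subunit of the same arm, fell by 0.39 on the log2 scale (SE 0.11, adjusted p = 0.0287), and its call was lost without any 1 of the vehicle arrays, CMS50 replicate 1 or CMS50 replicate 2.

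The accessory subunits of the membrane arm surround the proton-pumping core, which is encoded in mitochondrial DNA. Of 18 measured, 7 fell, with a median of -0.27 for the 18. Ndufb8, whose protein is often used as a marker of assembled complex I, read 9.06, 8.95 and 9.07 in vehicle, 8.92, 8.74 and 8.75 in CMS25, and 8.17, 8.44 and 8.59 in CMS50. No array of 1 dose overlapped those of another, and the means went down from vehicle to CMS25 to CMS50. The fall at CMS50 was 35.2% (log2 change -0.63, SE 0.12, adjusted p = 0.00551), while the CMS25 change of -0.23 did not pass the test (adjusted p = 0.851).

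Ndufa8, another membrane-arm subunit, read 10.66, 10.41 and 10.52 in vehicle, 10.42, 10.48 and 10.38 in CMS25, and 10.00, 10.09 and 10.23 in CMS50. The CMS50 arrays were the 3 lowest (log2 change -0.42, SE 0.096, adjusted p = 0.0122). The others called in this arm were Ndufb6, Ndufb9, Ndufa1, Ndufb4 and Ndufc2, with log2 changes between -0.41 and -0.28 and adjusted p from 0.0194 to 0.0417. Of 19 alternatives, Ndufb4 lost its call in 12, Ndufa1 in 7 and Ndufc2 in 6, cyclic loess scaling among them for each (adjusted p = 0.0811, 0.0671 and 0.0612), and Ndufb6 and Ndufb9 in 4 each, all without 1 array (vehicle replicate 1 or 2, CMS50 replicate 1 or 2). Ndufab1, the mitochondrial acyl carrier protein, which is both a complex I subunit and a cofactor of lipoate and iron-sulphur synthesis, fell by 0.35 (SE 0.088, adjusted p = 0.0173), a call lost without vehicle replicate 2, CMS50 replicate 1 or CMS50 replicate 2. Ndufa13 was the member of complex I with the most positive change, 0.04 (adjusted p = 0.779), and its sign turned without vehicle replicate 2.

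Among 9 accessory subunits of the peripheral arm, 1 fell, Ndufv3 (11.1%, beside 11.4% of all genes tested), and the median was -0.13. Ndufv3, which sits beside the flavin-binding subunits, read 11.02, 10.91 and 10.88 in vehicle, 11.14, 11.17 and 11.00 in CMS25, and 10.55, 10.27 and 10.76 in CMS50 (log2 change -0.41, SE 0.12, adjusted p = 0.0354), and 9 of 19 alternatives lost the call, among them the replicate block (adjusted p = 0.0556) and the fits without any 1 of the vehicle arrays, CMS50 replicate 1 or CMS50 replicate 2. Its 2 probe sets disagreed, since the dimmer gave 0.00 at CMS50 against vehicle and 0.14 against CMS25 (adjusted p = 0.988 and 0.447). The dimmer probe set of Ndufa7, in the same arm, went further than the one used, with -0.69 (adjusted p = 0.0128) against -0.24 (adjusted p = 0.0688) when all probe sets were fitted. Ndufa4, which carries a complex I name but was later assigned to complex IV, had a change of -0.32 that did not pass the test (adjusted p = 0.0539).

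Of the 6 Nduf-named assembly factors, which build complex I but are not part of it, 1 fell (16.7%, beside 11.4% of all genes tested). Ndufaf8, a partner of Ndufaf5 in the modification of the core subunit Ndufs7, read 8.17, 8.01 and 8.04 in vehicle, 8.03, 8.14 and 8.24 in CMS25, and 7.62, 7.56 and 7.75 in CMS50. All CMS50 arrays were below all others (log2 change -0.43, SE 0.093, adjusted p = 0.00974). Ndufaf5 itself had a change of 0.12 (adjusted p = 0.354). The other 4 did not pass the test, with changes from -0.25 to -0.05, although a dimmer probe set of Ndufaf7 gave -0.34 (adjusted p = 0.0471) when all probe sets were fitted.

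**Figure D2:**
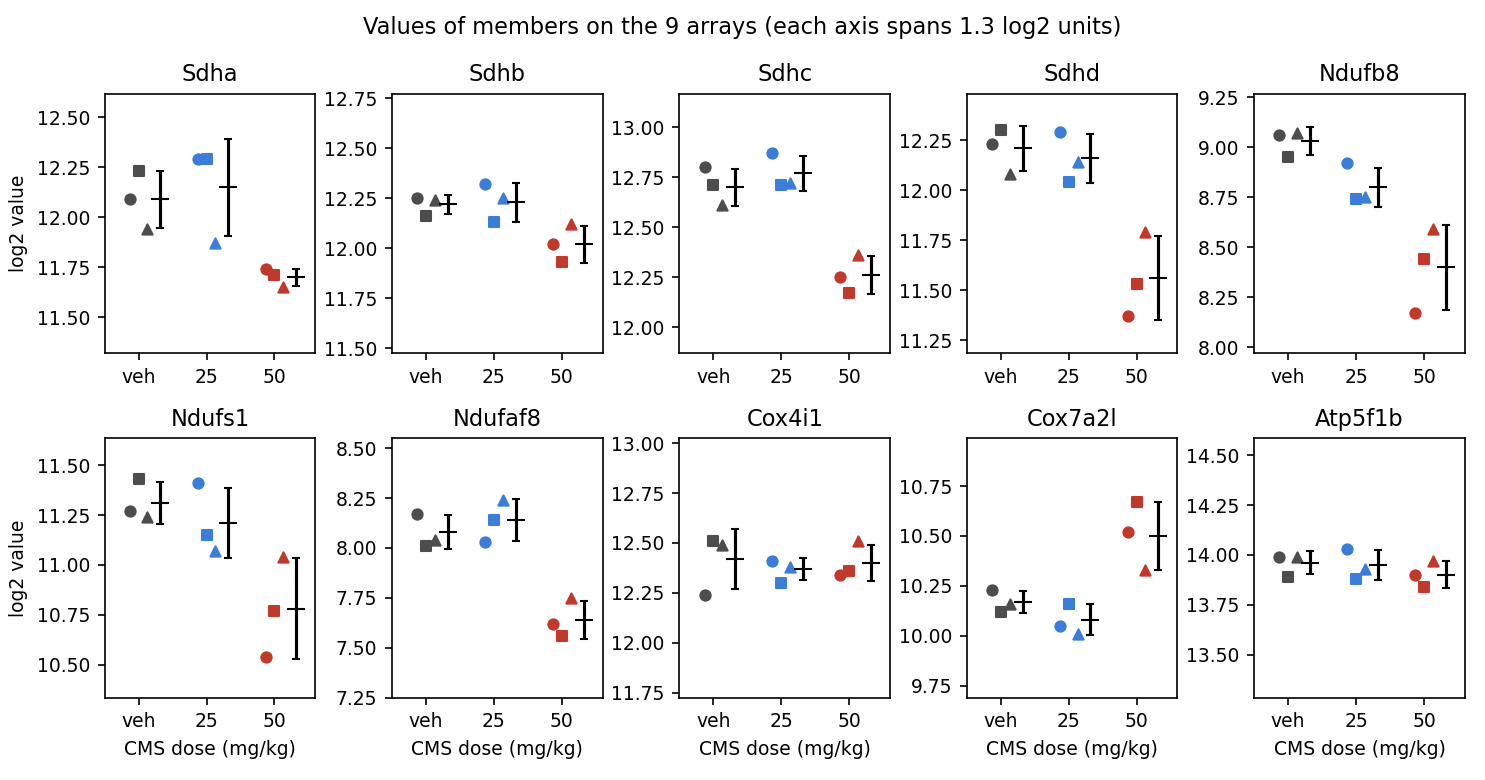
Log2 values of chosen members on the 9 arrays, by CMS dose in mg/kg. Circles, squares and triangles are replicates 1, 2 and 3, the bars are the mean and SD (n = 3), and every vertical axis spans the same range without starting at 0; all CMS50 points of Sdhd lie at or under 11.79 while its vehicle points lie at or over 12.08, and Cox4i1 and Atp5f1b overlap across doses.

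Complex III had a median of -0.15 (-9.57%) with 0 of 8 genes called against vehicle. In limma 2 of the 8 had an unadjusted p under 0.05 (25.0%, beside 43.4% of all genes tested). Uqcrfs1, the Rieske iron-sulphur protein, read 12.50, 12.52 and 12.19 in vehicle, 12.59, 12.22 and 12.43 in CMS25, and 11.67, 12.05 and 12.17 in CMS50. Only 0.02 separated the highest CMS50 from the lowest vehicle array, and the change of -0.44 (SE 0.16) had an adjusted p of 0.0596. Uqcrc2, a core protein outside the electron path, read 12.04, 12.00 and 11.90 in vehicle, 12.25, 11.86 and 11.87 in CMS25, and 11.60, 11.62 and 11.71 in CMS50. The CMS50 arrays were the lowest (log2 change -0.34, SE 0.11, adjusted p = 0.0508), and the change passed the test in a dimmer second probe set (-0.66, adjusted p = 0.0103). Against CMS25 it was called (-0.35, adjusted p = 0.0460), but 12 of 19 alternatives lost that call, among them cyclic loess scaling (adjusted p = 0.0547), no intensity minimum (adjusted p = 0.0565), the replicate block (adjusted p = 0.0598) and the fits without any 1 array except CMS25 replicate 2. Its partner core protein Uqcrc1 had a change of 0.03 (adjusted p = 0.778), and Cyc1, cytochrome c1, one of -0.11 (adjusted p = 0.394).

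Complex IV, cytochrome c oxidase, had the median nearest to 0 of the 5 complexes, -0.07 (-4.65%). None of its 11 measured genes was called lower, although 10 of the 11 changes were below 0. The middle of the 11 values is that of the pseudogene Cox6c-ps1. The 9 ubiquitous subunits measured had a median of -0.11 (-7.24%). Their changes ran from -0.26 for Cox7b (adjusted p = 0.0647) to -0.01 for Cox4i1. Ndufa4, counted in complex I by its name, is outside this list and had a more negative change (-0.32, adjusted p = 0.0539). Cox4i1, the regulatory subunit whose protein is often used as a mitochondrial loading control, read 12.24, 12.51 and 12.49 in vehicle, 12.41, 12.30 and 12.38 in CMS25, and 12.34, 12.36 and 12.51 in CMS50. The doses overlapped throughout, and the sign of its change (-0.01, SE 0.097, adjusted p = 0.941) turned to 0.07 after cyclic loess scaling. Cox8a, Cox6a1 and Cox5a had changes of -0.17, -0.11 and -0.14 (adjusted p = 0.151, 0.422 and 0.531), of which Cox5a comes from the dimmer probe set.

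Cox7a2l went the other way. It encodes a COX7A-related protein that joins complex III and complex IV into a supercomplex. Its values were 10.23, 10.12 and 10.16 in vehicle, 10.05, 10.16 and 10.01 in CMS25, and 10.52, 10.67 and 10.33 in CMS50. Every CMS50 array was above every other array, by at least 0.10, and the rise against vehicle was 26.3% (log2 change 0.34, SE 0.10, adjusted p = 0.0340). It was not called without any 1 of the vehicle arrays, CMS50 replicate 1 or CMS50 replicate 2 (adjusted p from 0.0601 to 0.121), while the change stayed between 0.25 and 0.37.

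The 6 tissue-restricted isoforms of complex IV, Cox4i2, Cox6a2, Cox6b2, Cox7a1, Cox7b2 and Cox8b, had means under 5 and were not tested, as was Ndufa4l2 of complex I. The muscle forms Cox6a2 and Cox7a1 averaged 3.92 and 4.77 over the 9 arrays. The pseudogene Cox6c-ps1 is among the 17 genes of complex IV by its name and had a change of -0.07 (adjusted p = 0.684). With it and the assembly factors set aside, 16 of 73 measured members fell, 1 rose and the median was -0.19.

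Complex V had a median of -0.14 (-9.19%), and 2 of its 16 genes fell. Atp5f1c, the central stalk subunit that rotates inside the F1 head, read 13.54, 13.54 and 13.48 in vehicle, 13.51, 13.45 and 13.45 in CMS25, and 13.06, 13.19 and 13.34 in CMS50. The CMS50 arrays were the lowest (log2 change -0.33, SE 0.089, adjusted p = 0.0241), but the call was lost after cyclic loess scaling (adjusted p = 0.0522) and without any 1 of the vehicle arrays, CMS50 replicate 1 or CMS50 replicate 2. Atp5pf, of the peripheral stalk that holds the head still, fell by 0.25 (SE 0.082, adjusted p = 0.0446), a call lost in 12 of 19 alternatives, among them cyclic loess scaling (adjusted p = 0.0887), no intensity minimum (adjusted p = 0.0601) and the fits without any 1 array except CMS50 replicate 3. Atp5pb, of the same stalk, had the most negative change of the complex, -0.36, but did not pass the test (SE 0.13, adjusted p = 0.0606).

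The catalytic subunits of the head did not pass the test. Atp5f1b, the catalytic beta subunit, read 13.99, 13.89 and 13.99 in vehicle, 14.03, 13.88 and 13.93 in CMS25, and 13.90, 13.84 and 13.97 in CMS50. The doses overlapped, and its change of -0.05 (adjusted p = 0.652) turned to 0.06 after cyclic loess scaling. Atp5f1a, the alpha subunit, had a change of -0.13 (adjusted p = 0.309) and Atp5f1d, the delta subunit, one of 0.09 (adjusted p = 0.410). None of the 5 small membrane subunits was called, with a median of -0.16.

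**Figure D3:**
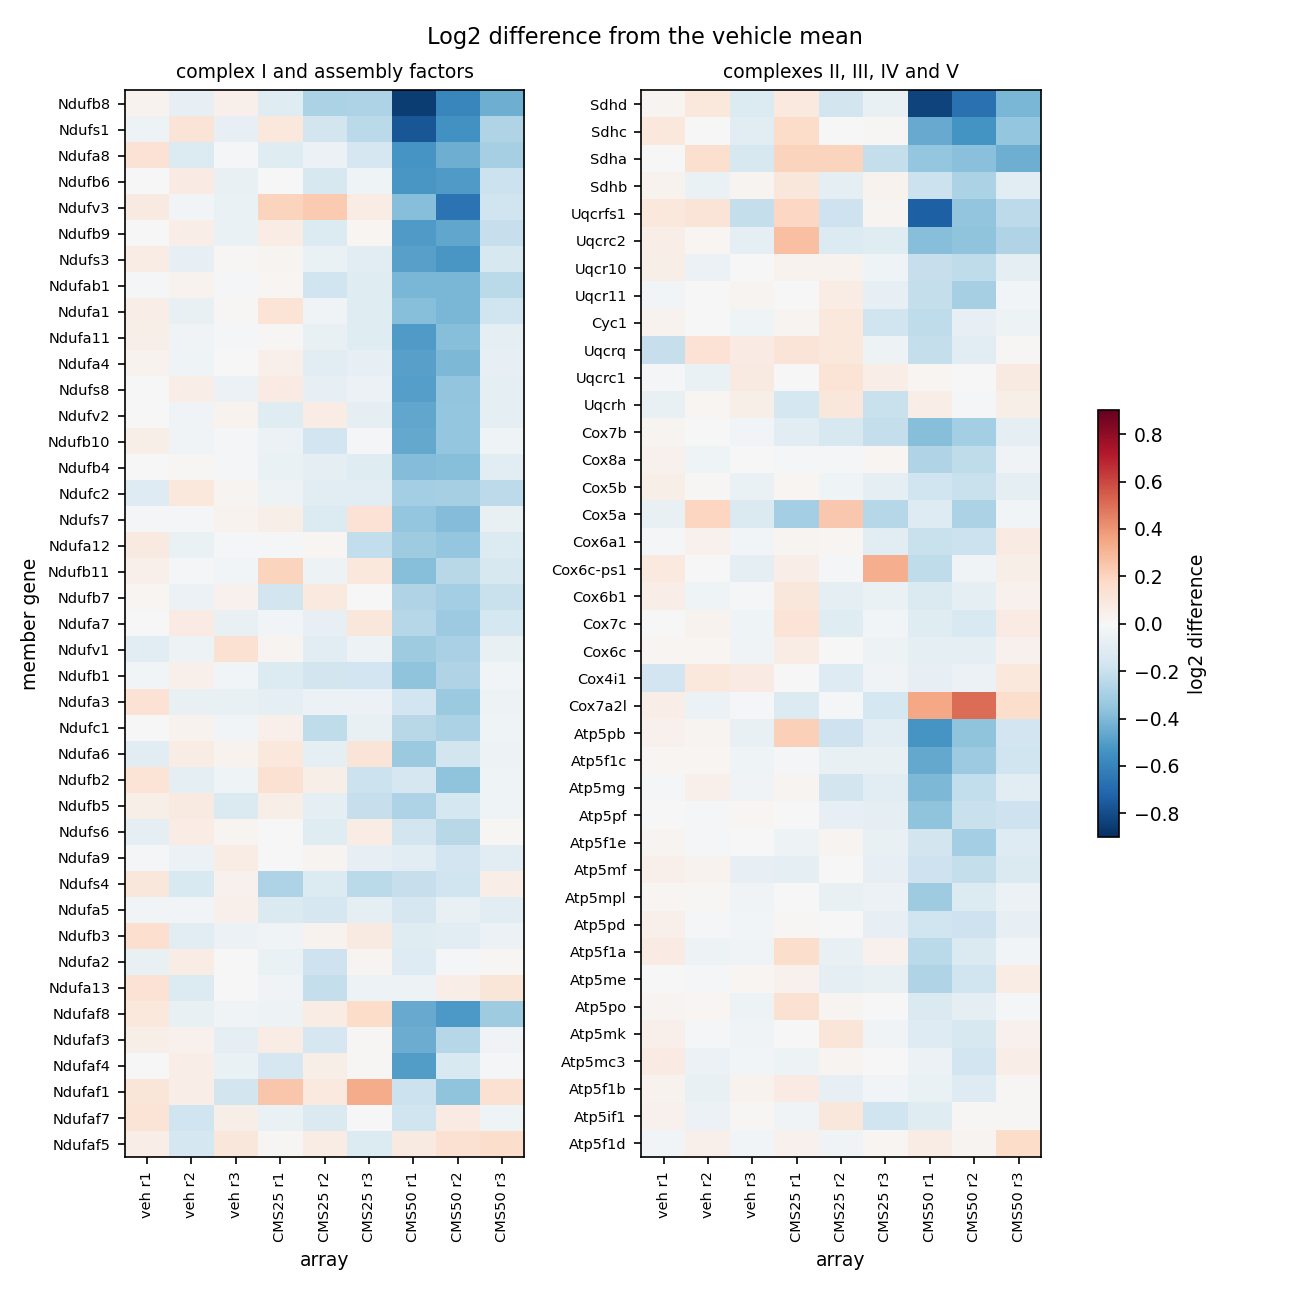
Log2 difference of each measured member from its vehicle mean on each of the 9 arrays, blue where lower and red where higher, ordered by complex and then by the CMS50 change. The blue columns are CMS50 replicates 1 and 2, CMS50 replicate 3 is paler, and Cox7a2l is the red row among the CMS50 columns.

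The CMS50 rats were not alike. The median difference of the 80 members from the vehicle mean was -0.26 on the array of CMS50 replicate 1, -0.26 on that of replicate 2 and -0.06 on that of replicate 3, while the median of all genes was 0.05, 0.07 and 0.05. Members below every vehicle array numbered 70 of 80 (87.5%) in replicate 1, 68 (85.0%) in replicate 2 and 43 (53.8%) in replicate 3, beside 34.5%, 32.7% and 27.0% of all genes. In replicate 3 the complex I median was -0.09 and the complex IV median 0.04. Complex II had medians of -0.40, -0.46 and -0.38, but its subunits were not alike. For Sdhb, Sdhc and Sdhd the array of replicate 3 was again the CMS50 array closest to vehicle, with medians of -0.65, -0.61 and -0.38 for the membrane anchors Sdhc and Sdhd, and for Sdha it was the one farthest from vehicle. Whether the complexes differed in their change was not tested, because genes of 1 complex share the same 9 arrays.

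**Figure D4:**
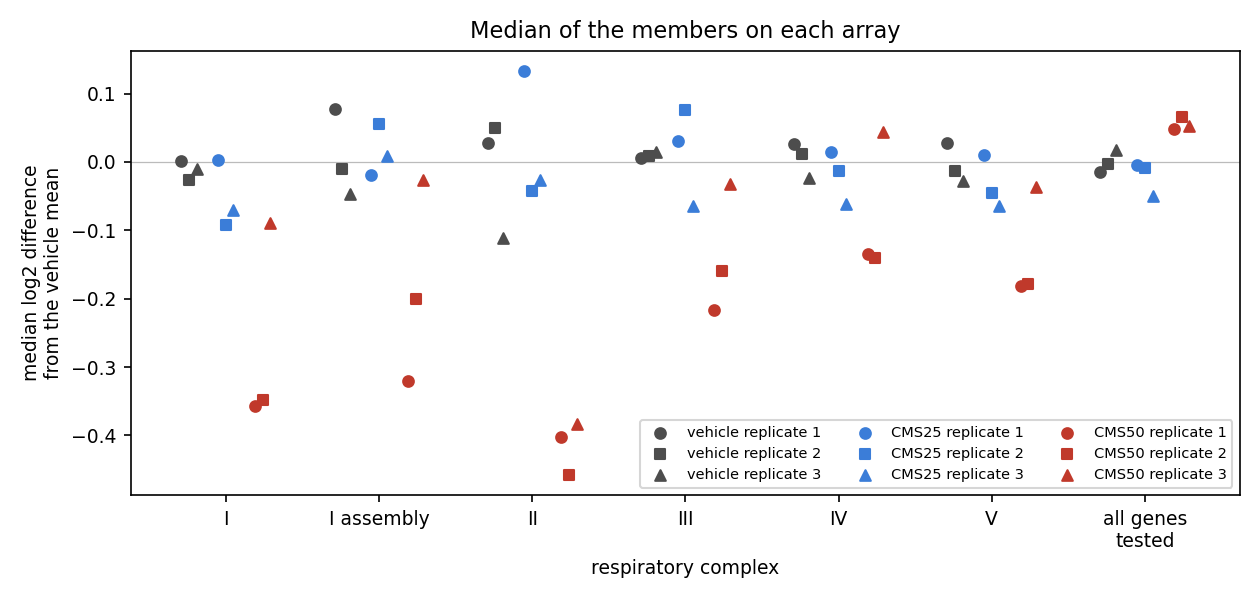
Median log2 difference of the measured members from the vehicle mean on each array, by complex, with all genes tested at the right. Colours are doses and shapes are replicates; CMS50 replicate 3 lies closer to vehicle than replicates 1 and 2 in complexes I, III, IV and V, and in complex II, where it lies at -0.38 beside -0.40 and -0.46, Sdhb, Sdhc and Sdhd do the same and Sdha does not.

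At 25 mg/kg no change of a member was called. Limma with Benjamini-Hochberg adjustment called 0 of the 80 members and 0.0% of all genes, and at an unadjusted p under 0.05 there were 0 members and 604 of 10337 genes (5.84%). The members' median was -0.03, beside -0.02 for all genes, and 56 of 80 changes were below 0 (70.0%, beside 56.5% of all genes), but after cyclic loess scaling the median was 0.01 and 35 of 80 were below 0. The medians of complexes I to V were -0.06, 0.04, 0.01, -0.02 and -0.03. The 95% intervals of 79 of the 80 changes lay within 0.5 of 0, with the lowest bound at -0.49 for Ndufb8 and the highest at 0.54 for Ndufaf1. In 5 members, Ndufb8, Ndufb4, Ndufb1, Ndufa5 and Cox7b, all CMS25 arrays were below all vehicle arrays (6.25% of members, beside 7.65% of all genes), and in 0 they were above (beside 4.45%).

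Between the doses, CMS50 against CMS25, 16 members fell and 1, Cox7a2l, rose, beside 30.3% of all genes called, 9.43% lower and 20.8% higher. Changes were below 0 in 69 of 80 members (beside 41.7% of all genes). All CMS50 arrays were below all CMS25 arrays in 31 members (38.8%, beside 15.3%) and above in 2 (beside 30.4%). The median was -0.18, with -0.22 in complex I, -0.48 in complex II, -0.16 in complex III, -0.06 in complex IV and -0.12 in complex V. Sdhd, Sdhc and Ndufaf8 were called in the main analysis and in each of the 19 alternatives here too, with log2 changes of -0.60, -0.51 and -0.50 (adjusted p = 0.00878, 0.00523 and 0.00612). Sdha changed by -0.45 (adjusted p = 0.0285), Ndufv3 by -0.57 (adjusted p = 0.0104) and Cox7a2l by 0.43 (adjusted p = 0.0144). Of 19 alternatives, Sdha lost this call in 6 and Cox7a2l in 1, while Ndufv3 lost it in 1 and turned sign in another. Ndufb11, a membrane-arm subunit of complex I, fell against CMS25 (-0.34, adjusted p = 0.0274), a call lost in 5 of 19 alternatives. Its change against vehicle did not pass the test (-0.26, adjusted p = 0.0674). This comparison shares the CMS50 arrays with that against vehicle, so the 2 sets of values are not independent.

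The number of members called lower between the doses also moved with single arrays. It was 4 without CMS50 replicate 1 or CMS50 replicate 2, 27 without CMS50 replicate 3, 5 without CMS25 replicate 1, 6 without CMS25 replicate 3, and 9, 10 and 9 without vehicle replicates 1, 2 and 3. Calls over all genes, lower or higher, moved too. From 3128 they went to 1737, 1569 and 3518 without CMS50 replicates 1, 2 and 3. Without CMS25 replicates 1 and 3 they were 2654 and 2008, and without vehicle replicates 1, 2 and 3 they were 2826, 2729 and 2749. The group means went from vehicle through CMS25 to CMS50 in falling order for 46 of 80 members and in rising order for 1. CMS50 had the lowest mean in 68 members, CMS25 in 10 and vehicle in 2. No difference between vehicle and CMS25 passed the test for any member, so the order of these neighbouring means is a description.

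The subunits encoded in mitochondrial DNA that could be read, COX1 and COX2, belong to complex IV and are not among the 87 genes. They were looked up after the annotation was seen. COX1 read 14.70, 14.45 and 14.45 in vehicle, 14.53, 14.53 and 14.42 in CMS25, and 14.63, 14.51 and 14.42 in CMS50, and the doses overlapped. Its CMS50 change was -0.01 (95% interval -0.23 to 0.21, adjusted p = 0.943), and that of COX2 was 0.01 (-0.15 to 0.17, adjusted p = 0.936). Both lie near the top of the array's range, at ranks 4 and 2 of 31099 probe sets by mean, and whether they were near saturation was not tested.

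Genes around the respiratory chain were read from lists of their roles. Here and in the paragraphs that follow, their counts stand beside 11.4% of all genes tested called lower and 19.6% called higher. No list was tested against these shares. The tricarboxylic acid cycle and pyruvate dehydrogenase, which supply NADH and succinate, had 8 of 15 genes lower and 0 higher at CMS50 against vehicle, with a median of -0.34. Dld, the dihydrolipoamide dehydrogenase shared by several of these enzymes, fell by 0.83 (SE 0.20, adjusted p = 0.0144), Pdhx, a structural component of pyruvate dehydrogenase, by 0.64 (SE 0.12, adjusted p = 0.00677) and Pdha1, its catalytic alpha subunit, by 0.47 (SE 0.11, adjusted p = 0.0141). Cs, the transcript of citrate synthase, had a change of 0.01 (adjusted p = 0.966) and is named after its value was seen. The activity of that enzyme is widely used as a measure of mitochondrial content, and neither was measured here. The other enzymes that feed electrons to ubiquinone, with coenzyme Q synthesis, had 5 of 19 lower and 2 higher, with a median of -0.17, among them Etfdh (-0.88, SE 0.14, adjusted p = 0.00321), which passes on electrons from fatty acid oxidation.

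Assembly factors of complexes II to V had 9 of 29 measured genes lower and 1 higher, with a median of -0.14. Sdhaf3, which helps the iron-sulphur subunit Sdhb to mature, read 9.37, 9.42 and 9.31 in vehicle, 9.28, 9.31 and 9.43 in CMS25, and 7.88, 8.04 and 8.56 in CMS50. The CMS50 arrays were all at least 0.72 below the rest, and the fall of 1.20 on the log2 scale (SE 0.16, adjusted p = 0.00221) exceeded that of any subunit. Of the other complex II factors, all looked up after their values were seen, Sdhaf4 fell by 0.50 (adjusted p = 0.0182) and Sdhaf2, which attaches the flavin to Sdha, by 0.40 (adjusted p = 0.0328), while Sdhaf1 did not pass the test (-0.20, adjusted p = 0.292). Cox19, a copper chaperone of complex IV, fell by 0.55 (adjusted p = 0.0143). Oxa1l, which inserts proteins into the inner membrane, was the 1 that rose (0.46, SE 0.094, adjusted p = 0.00813). Of 9 complex I assembly factors without an Nduf name, 1 fell, Tmem126b (-0.28, adjusted p = 0.0313).

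Regulators of mitochondrial biogenesis and mitochondrial DNA expression had 3 of 19 lower and 2 higher, with a median of -0.06. Of all genes tested, 11.4% were called lower and 19.6% higher. Tfb2m, a mitochondrial transcription factor, fell by 0.69 (SE 0.087, adjusted p = 0.00215) and the coactivator Ppargc1b by 0.48 (SE 0.15, adjusted p = 0.0373), while the coactivator Pprc1 rose by 0.84 (SE 0.21, adjusted p = 0.0185). Of further regulators named after their values were seen, Nrf1 rose by 0.32 (adjusted p = 0.0294), and Ppargc1a (-0.05, adjusted p = 0.794) and Tfam (-0.19, adjusted p = 0.125) did not pass the test. Pprc1 and Nrf1, the 2 that rose, lay near the intensity minimum of 5, with vehicle means of 5.49 and 5.58. Exchange of ATP and ADP and uncoupling had 0 of 10 measured lower and 2 higher, Ucp2, an uncoupling protein homolog (0.76, adjusted p = 0.00925), and Vdac2, a channel of the outer membrane (0.34, adjusted p = 0.0175). Import, membrane organisation and fusion had 3 of 17 lower and 1 higher, among them the fission protein Dnm1l (-0.55, adjusted p = 0.0235) and the import pore Tomm40 (0.45, adjusted p = 0.00994). At CMS25 limma called 0 genes of these lists, as it called 0 over all genes.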

How the data were processed

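Per the submitters' processing notes, the authors deposited log2 values made by RMA with Affymetrix Expression Console; versions are not given in the sources used here. This method makes the distributions of the arrays alike, so a shift of all genes together cannot be seen. The values were used as deposited. The table held 31099 probe sets with 0 missing values. Leaving aside 57 controls, the supplied platform annotation gave 1 gene symbol to 20826 probe sets, several to 436 and none to 9780. The GRCr8 gene table held the identifier of 20758 of the first, and 0 symbols were updated. Genes with a mean log2 value of at least 5 were tested, which left 10337 of 14217.

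The 3 groups were fitted together in limma 3.58.1 under R 4.3.3 by lmFit and eBayes with their default variance model, with 3 arrays per group. Benjamini-Hochberg adjustment ran over the 10337 genes, a call is an adjusted p under 0.05, and intervals hold at 95%. The fit was also run on simulated data with planted changes, and no result of that run is used here. The labels call the arrays biological replicates, and give no batch, sex or time of kill. The members and lists were chosen with earlier results of these data known. Named were all members called in any comparison, the most negative and most positive member of complexes I, III, IV and V, a panel of well-known subunits, members whose probe sets disagreed, and up to 3 called genes per list. Members of the panel without a probe set of their own are not reported. Alternatives changed the scaling (cyclic loess), the intensity minimum (none or 6), the probe set rule, the probe set types, the variance model (trend, robust), array weights, the groups fitted and the replicate block, and left out each array. Promoter windows came from RefSeq, GRCr8. Figures used matplotlib 3.10.9 under Python 3.11.15.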

Additional observations from a re-analysis of the deposited data

How the results depend on the processing

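For CMS50 minus vehicle, 11 members were called lower after cyclic loess scaling and 35 with array weights, in place of 17. The range over fits that left out 1 array was 5 to 33 lower and 0 to 1 higher, and all-gene calls moved too, from 3211 to 1711 without CMS50 replicate 1, 1687 without replicate 2 and 3546 without replicate 3. For CMS50 minus CMS25, 4 were called lower, in place of 16, when only these 2 groups were fitted, and the range without 1 array was 4 to 27 lower and 0 to 1 higher. The replicate block gave 12 lower against vehicle and 8 against CMS25. The labels do not say whether replicate numbers pair the arrays. Same-numbered arrays deviated together with correlations from -0.183 to 0.263, and differently numbered ones from -0.229 to 0.225. With so few arrays these values cannot show whether the numbers carry a meaning. The median over members ranged from -0.252 to -0.122 for CMS50 minus vehicle. For CMS25 minus vehicle it turned from -0.03 to 0.01 after cyclic loess scaling. Signs turned for Atp5f1b (0.06) and Cox4i1 (0.07) after cyclic loess scaling, for Cox4i1 without vehicle replicate 2 or 3 (0.04 and 0.03) and CMS50 replicate 1 or 2 (0.02 and 0.01; range without 1 array -0.10 to 0.04), for Ndufa13 without vehicle replicate 2 (-0.02; range -0.02 to 0.10), and for Ndufv3 in CMS50 minus CMS25 when probe sets that may read several transcripts were left out (0.14); the cause was not tested. Of 948 values over 50 named results, 739 kept their direction and side of the threshold, 190 lost the call, 11 gained one and 8 reversed.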

Other observations

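Cox8b, an isoform of complex IV known from heart, skeletal muscle and brown fat, lay below the intensity minimum with a mean of 4.82, but read 6.91 on the array of CMS25 replicate 1 against 4.01 to 5.17 on the other 8 arrays. A list of 7 adipose genes, added after this value was seen, was read on the same arrays. Of the 7, 5 had their highest value on that array, among them Plin1, which coats fat droplets (6.52 against 3.29 to 3.56), and Ucp1, the uncoupling protein of brown fat (5.35 against 3.25 to 3.94). The summed intensity of the list was 1780 there and 414 to 1190 on the others. No test was made on these values. At CMS25 against vehicle no gene was called with or without this array, so leaving it out cannot show its part there. For CMS50 minus CMS25, complex I members called lower went from 10 to 2 without it, and calls over all genes from 3128 to 2654. The part of the adipose values in this was not tested.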
